A study of Homo sapiens with 9 samples.

Results

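The aldo-keto reductases are enzymes that use NADPH to reduce carbonyl groups of aldehydes, ketones and steroids to alcohols, and this family was followed here in Huh7, a cell line long established from a human liver carcinoma. Its members were 9 gene symbols picked by name: AKR1A1, AKR1B1, AKR1B10, AKR1C1, AKR1C2, AKR1C3, AKR1C4, AKR1D1 and AKR7A2. All 9 were found among the 27800 symbols of the deposited table. The choice used no threshold, but it was made with the responses of some members to the compounds already known. The members' differences between groups are therefore given as descriptions, with standard errors and without p-values.

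The study sequenced total RNA from 9 Huh7 libraries in 3 groups of 3. One group was treated with 5 uM FIDAS-5, an inhibitor of the methionine adenosyltransferase MAT2A, for 48 h. A second was treated with 0.5 uM JQ1, an inhibitor of the BET bromodomain proteins, for 48 h. The control group received vehicle. All libraries came from the same cell line in the same serum-containing medium, so they describe 1 tumour line and not liver tissue. Whether replicates were grown as separate cultures is not stated, so a p-value reflects the variation among libraries alone, and that may be technical. FIDAS-5 and JQ1 are unrelated compounds tested at 1 concentration apiece, so no doses are matched between them.

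In liver, the AKR1C enzymes reduce steroid hormones and also clear reactive aldehydes and drugs with carbonyl groups. AKR1D1 performs a reduction step of bile acid synthesis. AKR1B1, AKR1B10 and AKR1A1 reduce sugars, retinal and lipid-derived aldehydes, and AKR7A2 reduces an aldehyde form of the mould toxin aflatoxin. Genes of the AKR1C group are known in human cells as targets of the stress-response transcription factor NRF2, which binds antioxidant response elements.

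The upstream sequences of AKR1C1 and AKR1C2 are shown because these genes had the highest level of the family in FIDAS-5 libraries and are near-identical neighbours on chromosome 10. Each is the 250 bases before a RefSeq start of the gene, read 5′ to 3′ on the gene's strand from RefSeq (build GRCh38.p14), at chr10:4963165-4963414 on the plus strand for AKR1C1 and chr10:5003858-5004107 on the minus strand for AKR1C2. The AKR1C2 start used lies inside the full span of the gene, which also has a start farther upstream. Capitals mark bases present in only one of them.
AKR1C1: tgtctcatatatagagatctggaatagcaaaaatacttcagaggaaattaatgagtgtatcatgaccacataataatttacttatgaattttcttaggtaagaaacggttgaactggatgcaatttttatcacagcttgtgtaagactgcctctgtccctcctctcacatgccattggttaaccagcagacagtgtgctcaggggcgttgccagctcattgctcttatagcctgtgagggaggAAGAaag
AKR1C2: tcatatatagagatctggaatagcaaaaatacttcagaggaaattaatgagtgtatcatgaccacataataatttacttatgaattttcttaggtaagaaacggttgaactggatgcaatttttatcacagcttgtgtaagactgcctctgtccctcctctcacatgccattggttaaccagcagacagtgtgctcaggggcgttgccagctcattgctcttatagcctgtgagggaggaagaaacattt
Across the full windows of 300 bases, which run 50 bases past each start, 288 of 292 aligned bases were identical (98.6%), with a gap of 4 bases. Within the stretches printed here the gap, marked by 4 capitals in AKR1C1, was the only difference apart from the offset of their ends. The window of AKR1C3 shared 79.5% of its aligned bases with that of AKR1C1, and the window of AKR1C4 shared 70.5%.

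The likeness extends to the transcripts. The coding sequences of AKR1C1 and AKR1C2 matched at 950 of 969 bases, and 66.8% of the stretches of 31 bases in the AKR1C2 coding sequence also occur in AKR1C1 transcripts of the GENCODE annotation. For AKR1C3 22.6% of such stretches, and for AKR1C4 12%, occur in AKR1C1 transcripts. Reads from shared stretches cannot be assigned to a single gene, so the split between AKR1C1 and AKR1C2 is an estimate of the authors' quantification. Their summed TPM depends on it less, mainly through the transcript lengths by which reads are divided.

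AKR1C1, a 20-alpha-hydroxysteroid dehydrogenase that inactivates progesterone, lies on chromosome 10 from 4963415 to 4983283. Its level was 274, 266 and 289 TPM (a transcript abundance scaled for transcript length and for the library total) in FIDAS-5 libraries, 35.5, 33.6 and 32.9 TPM in JQ1 libraries, and 27.9, 35.8 and 28.2 TPM in vehicle libraries. The FIDAS-5 libraries stood far above all others, while the JQ1 and vehicle libraries overlapped. The means were 276 ± 11.3 TPM with FIDAS-5, 34.0 ± 1.33 TPM with JQ1 and 30.6 ± 4.48 TPM with vehicle (SD, n = 3 each), which puts FIDAS-5 at 9.02 times vehicle. On the log2(TPM + 1) scale the difference was 3.14 (SE 0.13) for FIDAS-5 against vehicle and 0.15 (SE 0.13) for JQ1 against vehicle. In bulk RNA, fewer cells that use a gene and less RNA of it per cell cannot be told apart.

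AKR1C2, a 3-alpha-hydroxysteroid dehydrogenase that acts on dihydrotestosterone and binds bile acids, lies on the minus strand of chromosome 10 from 4987775 to 5018000, with 4492 bases between its 3′ end and the 3′ end of AKR1C1. It was at 53.5, 42.0 and 46.7 TPM in FIDAS-5 libraries, 8.69, 9.24 and 6.46 TPM in JQ1 libraries, and 3.41, 5.47 and 4.26 TPM in vehicle libraries. The 3 groups did not overlap, with JQ1 between the other two. Its log2 difference was 3.18 (SE 0.19) for FIDAS-5 against vehicle and 0.77 (SE 0.19) for JQ1 against vehicle. AKR1C2 thus rose with JQ1 in the fit, while AKR1C1 did not pass the threshold there.

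AKR1C3, which makes testosterone and prostaglandin F, and AKR1C4, a 3-alpha-hydroxysteroid dehydrogenase mostly confined to liver, were nearly silent. AKR1C3 was at 0.529, 0.617 and 0.259 TPM with FIDAS-5, 0.0988, 0.297 and 0.0416 TPM with JQ1, and 0.157, 0.274 and 0.29 TPM with vehicle, and its groups overlapped. AKR1C4 was at 0.611, 0.835 and 0.401 TPM with FIDAS-5 and at 0.264, 0.125 and 0.0845 TPM with vehicle. It was listed at 0 in JQ1 replicates 1 and 3 and at 0.0601 TPM in JQ1 replicate 2. All FIDAS-5 libraries of AKR1C4 lay above the vehicle libraries, at levels close to 0 and with the depth unknown.

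Summed TPM of the 4 AKR1C genes depends less than each gene's own level on how shared reads were split. The sum was 325 ± 13.6 TPM in FIDAS-5 libraries, 42.3 ± 2.54 TPM in JQ1 libraries and 35.4 ± 5.45 TPM in vehicle libraries (SD, n = 3 each). As a single feature it had a log2 difference of 3.17 (SE 0.13) for FIDAS-5 against vehicle and 0.26 (SE 0.13) for JQ1 against vehicle. AKR1C1 held 85.1% ± 1.47 of the sum with FIDAS-5, 80.5% ± 2.89 with JQ1 and 86.6% ± 1.18 with vehicle. AKR1C2 held 14.6% ± 1.47, 19.1% ± 2.55 and 12.3% ± 1.34 in the same order of groups. The FIDAS-5 increase was therefore present in the sum, while the JQ1 difference of AKR1C2 moved its share of the sum more than the sum itself. The 4 genes made up 84.6% ± 0.944 of the TPM of all 9 members with FIDAS-5, 45.5% ± 1.96 with JQ1 and 45.6% ± 2.5 with vehicle.

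**Figure D1:**
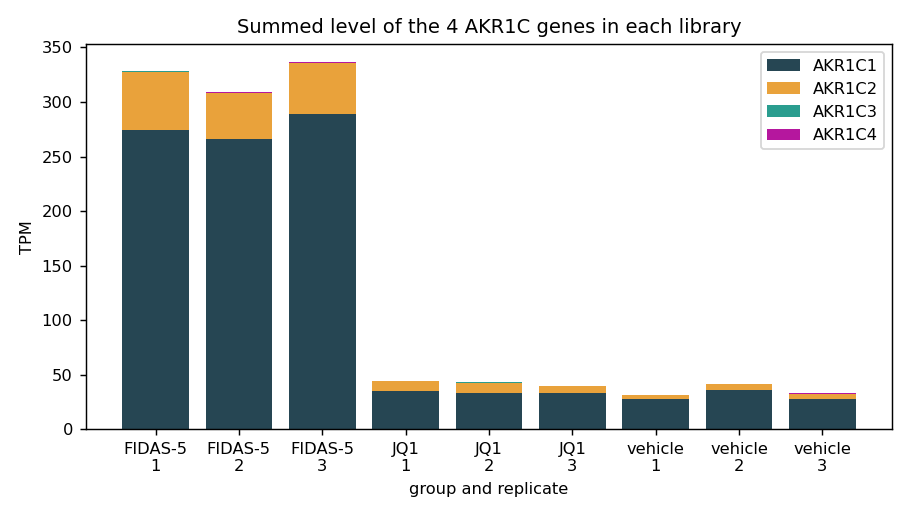
Summed TPM (linear axis from 0) of AKR1C1, AKR1C2, AKR1C3 and AKR1C4, stacked, in each FIDAS-5, JQ1 and vehicle library. The FIDAS-5 bars reach 310 to 336 TPM, against 39.4 to 44.3 TPM with JQ1 and 31.8 to 41.7 TPM with vehicle, and AKR1C1 fills most of every bar.

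AKR1D1, the 5-beta-reductase that shapes the steroid ring of bile acids, had low levels that ran opposite ways with the 2 compounds. It was at 2.55, 2.32 and 1.53 TPM with FIDAS-5, 0.68, 0.432 and 0.294 TPM with JQ1, and 0.914, 1.53 and 1.4 TPM with vehicle. All JQ1 libraries lay below vehicle, and the lowest FIDAS-5 library equalled the highest vehicle library to 3 digits. AKR1D1 fell by 0.63 (SE 0.18) on the log2 scale with JQ1, and its difference of 0.45 (SE 0.18) with FIDAS-5 did not pass the threshold. A pseudocount of 1 TPM makes such differences smaller than the ratio of means, which was 0.366 for JQ1 over vehicle. Replicate 3 was the lowest library of AKR1D1 in both treated groups, and these libraries also departed from their group means in step with the GC content of transcripts (rank correlations of 0.55 for FIDAS-5 and 0.64 for JQ1, taken across genes that are not independent replicates). Replicate 1 departed the opposite way in both treated groups (-0.51 for FIDAS-5 and -0.65 for JQ1), and vehicle replicate 1 had 0.38. Departures balance out within a group, so these values do not single out replicate 3. With that GC trend removed, AKR1D1 was called higher with FIDAS-5 at a log2 difference of 0.66. Its JQ1 call ended without JQ1 replicate 2 or 3 or vehicle replicate 2 or 3 (-0.62 to -0.55).

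Among the sugar and lipid aldehyde reductases, AKR1B1, known as aldose reductase and the first enzyme of the polyol pathway, was at 29.1, 22.9 and 27.0 TPM with FIDAS-5, 10.2, 11.9 and 10.2 TPM with JQ1, and 13.4, 17.3 and 17.4 TPM with vehicle. The 3 groups did not overlap, FIDAS-5 being above and JQ1 below vehicle. AKR1B1 rose by 0.68 (SE 0.15) with FIDAS-5 and fell by 0.53 (SE 0.15) with JQ1 on the log2 scale. The FIDAS-5 call ended without FIDAS-5 replicate 3 (0.66), and the JQ1 call ended without JQ1 replicate 1 or 3 or vehicle replicate 2 or 3 (-0.49 to -0.47), so the call but not the size rested on these libraries.

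AKR1B10, a retinal and aldehyde reductase often raised in liver cancer, was at 1.34, 0.853 and 1.86 TPM with FIDAS-5, 0.387, 0.142 and 0.28 TPM with JQ1, and 0.406, 0.264 and 0.322 TPM with vehicle. The FIDAS-5 libraries lay above all others, but AKR1B10 did not pass the filter on low values. Its close relative and neighbour AKR1B15 was more abundant, at 7.79 TPM with FIDAS-5, 5.52 TPM with JQ1 and 9.79 TPM with vehicle on average. AKR1B15 fell with JQ1 (log2 difference -0.72, adjusted p = 0.00423 by limma) and had a difference of -0.29 with FIDAS-5 (adjusted p = 0.197). The coding sequences of this pair were 92.7% identical, and 33.1% of the stretches of 31 bases of AKR1B10 occur in AKR1B15 transcripts, so their separate levels are uncertain.

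AKR1A1, the aldehyde reductase that acts on glucuronate, was the only member that passed the filter and was not called in any comparison of the fit. It was at 24.8, 20.7 and 25.8 TPM with FIDAS-5, 22.4, 24.8 and 21.3 TPM with JQ1, and 16.1, 21.0 and 18.1 TPM with vehicle. FIDAS-5 and vehicle overlapped, and the JQ1 libraries lay just above vehicle. Neither difference passed the threshold (0.35 with FIDAS-5 and 0.30 with JQ1, each with SE 0.14).

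AKR7A2, the aflatoxin aldehyde reductase, which also reduces succinic semialdehyde, was at 5.54, 5.05 and 6.25 TPM with FIDAS-5, 14.9, 17.8 and 16.2 TPM with JQ1, and 5.18, 6.41 and 6.73 TPM with vehicle. All JQ1 libraries lay above every other library, and FIDAS-5 and vehicle overlapped. AKR7A2 rose by 1.29 (SE 0.14) on the log2 scale with JQ1 and had a difference of -0.10 (SE 0.14) with FIDAS-5. The ratio of its means was 2.67 for JQ1 over vehicle.

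**Figure D2:**
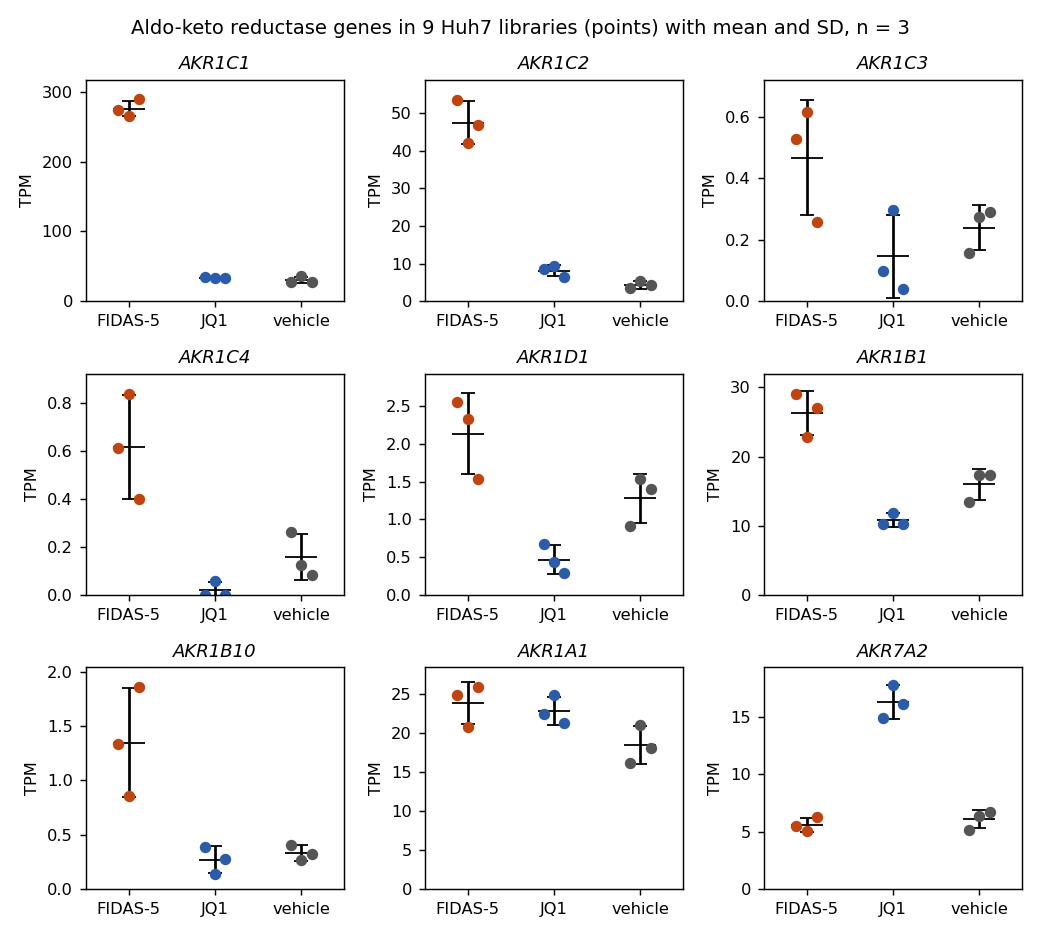
TPM of each of the 9 members (1 panel each, linear axis from 0) in FIDAS-5, JQ1 and vehicle libraries, with points for libraries and bars for the mean and SD (n = 3). AKR1C1 and AKR1C2 are far higher with FIDAS-5, AKR7A2 is higher with JQ1, and AKR1B1 is ordered FIDAS-5, vehicle, JQ1 from high to low.

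The 250 bases before the start of AKR7A2 (chr1:19312147-19312396, minus strand, GRCh38.p14, from RefSeq) are shown for their matches to the core of the antioxidant response element. Among the members that could be searched, only AKR7A2 had such a match. Capitals mark the matches to TGACNNNGC on either strand.
AKR7A2: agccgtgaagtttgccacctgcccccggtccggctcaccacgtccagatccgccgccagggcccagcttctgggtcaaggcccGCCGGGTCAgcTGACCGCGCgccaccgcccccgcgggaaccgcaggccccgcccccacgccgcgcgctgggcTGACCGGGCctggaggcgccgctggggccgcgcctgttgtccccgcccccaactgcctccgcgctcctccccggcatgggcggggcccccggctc
This window held 3 matches, which do not overlap one another, and 1 match to GCGTG, the core bound by the aryl hydrocarbon receptor. Over windows of 300 bases, 8 of the 9 members had an entry, and AKR1B10 had none and was not searched. None of the windows of the AKR1C genes, AKR1D1, AKR1A1 or AKR1B1 held TGACNNNGC. GCGTG occurred once in the windows of AKR1B1. Of 35116 human promoter windows of the same length, 13.3% held TGACNNNGC and 36.5% held GCGTG. A match is a run of letters and not a bound site, and no match says only that these letters are not in this window.

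Of the 9 members, 6 passed the filter of at least 1 TPM in at least 3 libraries, and AKR1B10, AKR1C3 and AKR1C4 did not. AKR1D1 passed with 5 libraries, 3 with FIDAS-5 and 2 with vehicle, and AKR1B10 missed the filter with 2. With FIDAS-5, AKR1C1, AKR1C2 and AKR1B1 (3 of 6) were called higher and none lower, where 20.2% of all 13573 tested genes were called, 12.6% higher and 7.6% lower (1711 and 1031 genes, or 1904 and 1756 with quantile normalization). With JQ1, AKR1C2 and AKR7A2 (2 of 6) were called higher and AKR1B1 and AKR1D1 (2 of 6) lower, where 38.5% of all genes were called, 19.0% higher and 19.4% lower. Since these responses were known when the members were picked, nothing is read from the shares. The same vehicle libraries serve both comparisons. Counted by libraries that do not overlap, 4 of the 6 members that passed the filter lay above vehicle and none below with FIDAS-5, beside 39.3% of all tested genes (20.9% above and 18.4% below). With JQ1, 3 of these 6 lay above and 2 below, beside 50.7% of all tested genes (24.5% above and 26.2% below). Of the untested members, AKR1B10 and AKR1C4 also lay above vehicle with FIDAS-5, and AKR1C4 lay below it with JQ1.

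Set directly against FIDAS-5 in the same fit, JQ1 libraries were called lower for AKR1C1 (-2.99, SE 0.13), AKR1C2 (-2.41, SE 0.19), AKR1B1 (-1.21, SE 0.15) and AKR1D1 (-1.09, SE 0.18), all as log2 differences. Only AKR7A2 was called higher with JQ1 than with FIDAS-5 (1.39, SE 0.14), and AKR1A1 differed by -0.05 (SE 0.14). In that contrast 34.8% of all tested genes were called, 16.4% higher and 18.5% lower. Of the 6 members that passed the filter, the JQ1 libraries of 1 lay wholly above and those of 4 wholly below the FIDAS-5 libraries, beside 47.6% of all tested genes (22.7% above and 25.0% below). These differences share their libraries with the comparisons against vehicle and describe the same values once more.

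**Figure D3:**
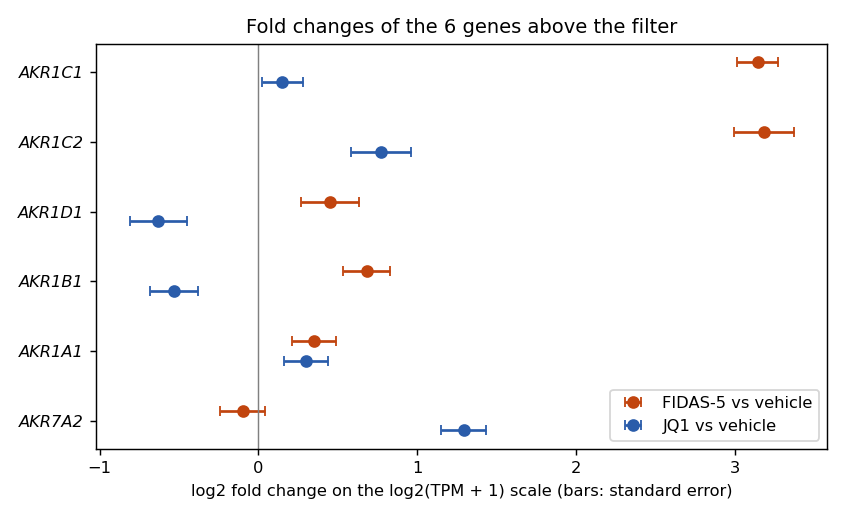
Log2 fold changes on the log2(TPM + 1) scale of the 6 members that passed the filter, for FIDAS-5 against vehicle and JQ1 against vehicle, with bars for the standard error. AKR1C1 and AKR1C2 stand near 3.14 and 3.18 with FIDAS-5, AKR1B1 and AKR1D1 lie on opposite sides of 0 for the 2 compounds, and AKR7A2 departs from 0 with JQ1.

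The order of the members by TPM changed between groups. AKR1C1 was first in every group and did not overlap the next member in any. Behind it, FIDAS-5 libraries had AKR1C2 (47.4 TPM on average), then AKR1B1 and AKR1A1, which overlapped, then AKR7A2. JQ1 libraries had AKR1A1 (22.8 TPM), AKR7A2 (16.3 TPM), AKR1B1 (10.8 TPM) and AKR1C2 (8.13 TPM), none of which overlapped the next. Vehicle libraries had AKR1A1 (18.4 TPM) and AKR1B1 (16.0 TPM), which overlapped, then AKR7A2 and AKR1C2, which overlapped as well. AKR1D1 followed in each group, and AKR1B10, AKR1C3 and AKR1C4 came last.

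Profiles over the 9 libraries were compared by the Euclidean distance between centred log2(TPM + 1) values. Among members, AKR1B1 and AKR1D1 were closest (0.626), followed by AKR1C1 and AKR1C2 (0.944), and AKR1C1 and AKR7A2 were farthest apart (5.57). These distances grow with the size of the differences, and the pseudocount of 1 TPM makes those of AKR1D1 smaller. The ratio of means for JQ1 over vehicle was 0.366 for AKR1D1 and 0.671 for AKR1B1, so the first rank of this pair depends in part on level. Of the other tested genes with a mean of at least 5 TPM, those nearest to AKR1C1 were LIPH (0.638), TAP1 (0.719) and CDKN1A (0.722). Those nearest to AKR1C2 were TFF3 (0.785), AQP3 (1.18) and TIPARP (1.26). SRPRB (0.227), PPIB (0.244) and NSUN6 (0.314) were nearest to AKR1B1, and DGCR6L (0.323), CARHSP1 (0.359) and GUSB (0.367) to AKR7A2.

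Along the chromosomes, the AKR1C genes were not joined by all of their neighbours. AKR1E2, which lies before AKR1C1, was listed at 0 in all 9 libraries, and AKR1C8P, between AKR1C3 and AKR1C4, had means of 0.0567 TPM with FIDAS-5, 0 with JQ1 and 0.0394 TPM with vehicle. UCN3, beyond AKR1C4, averaged 1.13 TPM with FIDAS-5, 0.318 TPM with JQ1 and 0.304 TPM with vehicle and did not pass the filter. Next to AKR7A2, AKR7A3 had means under 0.1 TPM in each group, and PQLC2, a lysosomal amino acid transporter which begins 180 bases upstream of the start of AKR7A2, within the upstream sequence printed above, rose with both compounds. Its log2 difference was 1.03 with FIDAS-5 (adjusted p = 0.00174 by limma) and 0.93 with JQ1 (adjusted p = 0.00143), so with FIDAS-5 it was called where AKR7A2 was not. The neighbours were added after values had been seen.

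Of other rows of the superfamily, 10 were in the table and 4 passed the filter. KCNAB2, a potassium channel beta subunit with an aldo-keto reductase fold, was higher with FIDAS-5 (2.76 TPM, against 0.556 TPM with vehicle, log2 difference 1.25, adjusted p = 0.00251 by limma). AKR7L, annotated as a transcribed pseudogene beside AKR7A3, was higher with JQ1 (1.28 TPM, against 0.562 TPM with vehicle, 0.55, adjusted p = 0.00786). AKR7L reached 1 TPM in the JQ1 libraries only, and KCNAB2 in all FIDAS-5 libraries, some JQ1 libraries and no vehicle library. Both thus passed the filter with the help of the group where they were high, and their p-values are no support for a change. KCNAB1 had differences of -0.10 and -0.42 with FIDAS-5 and JQ1 (adjusted p = 0.865 and 0.364), and AKR1B15 is described above. KCNAB3, AKR7A2P1 and AKR1C6P stayed under 1 TPM on average in each group.

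Other enzymes that reduce carbonyls and quinones moved in mixed directions. Of 18 tested genes, members left out, 8 rose and 1 fell with FIDAS-5, and 8 rose and 6 fell with JQ1, with medians of 0.29 and 0.16 beside -0.02 and -0.01 over all genes. For this and the lists below, the shares called over all tested genes were 12.6% higher and 7.6% lower with FIDAS-5. With JQ1 they were 19.0% and 19.4%. Without FIDAS-5 replicate 3 the FIDAS-5 count was 5 in both directions together. With the GC trend removed, DCXR (-0.66), DHRS4 (-0.62), DHRS13 (-0.53) and QDPR (-0.34) were also called lower with FIDAS-5. CBR4 (0.49) was then called higher, and SPR was no longer called. DCXR was also called lower with no filter (-0.35). PTGR1, which reduces lipid aldehydes, was at 44.1 TPM with FIDAS-5, 27.4 TPM with JQ1 and 12.5 TPM with vehicle. Its log2 differences were 1.74 and 1.06 (adjusted p = 0.000338 and 0.00197 by limma). DCXR, a carbonyl reductase that makes xylitol, was at 317 TPM with JQ1 and 67.3 TPM with vehicle, a rise of 2.22 (adjusted p = 1.03e-05), and had a difference of -0.35 with FIDAS-5 (adjusted p = 0.0698). DHRS3, a retinal reductase, rose with both compounds (0.77 and 1.02).

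The steroid and bile acid enzymes around AKR1C4 and AKR1D1 gave 4 genes higher and none lower of 15 steroid enzymes with FIDAS-5 (median 0.31), and 3 higher and 3 lower with JQ1 (median -0.08). Both counts of higher genes include HSD17B14, at 1.88 TPM with FIDAS-5, 1.97 TPM with JQ1 and 0.768 TPM with vehicle on average. It passed the filter with the help of the treated groups, so its calls are no support for a change. Its FIDAS-5 call ended with no filter (0.70), with the GC trend removed (0.44) and on leaving out each FIDAS-5 library in turn (0.52 to 0.81). The JQ1 call also ended with the GC trend removed (0.54). HSD17B2, which inactivates oestradiol and testosterone, was at 98.3 TPM with FIDAS-5, 105 TPM with JQ1 and 24.3 TPM with vehicle, and rose with both (1.98 and 2.07, adjusted p = 2.73e-05 and 1.45e-05). UGT2B4, a bile acid glucuronosyltransferase, rose with FIDAS-5 by 1.74 (adjusted p = 0.00039) and fell by 1.29 with JQ1 (adjusted p = 0.000865). Of 9 bile acid synthesis enzymes 4 rose and none fell with FIDAS-5 (median 0.77), namely HSD3B7 (1.12), CYP27A1 (1.15), CYP39A1 (1.35) and ACOX2 (0.77). With JQ1, CYP27A1 rose (1.21) and ACOX2, a branched-chain oxidase, fell by 2.60, with a median of -0.09, and 4 were called without JQ1 replicate 3. CYP7A1, the rate-limiting enzyme of bile acid synthesis, was at 0.0427 TPM with FIDAS-5, 0.0851 TPM with JQ1 and 0.0817 TPM with vehicle on average.

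NADPH is the electron donor of the family. Of 18 tested genes of NADPH supply, 3 rose and 3 fell with FIDAS-5 (median -0.03), and 3 rose and 8 fell with JQ1 (median -0.36). MTHFD1L, a mitochondrial folate enzyme, fell by 0.72 with FIDAS-5 (adjusted p = 0.0083) and by 1.85 with JQ1 (adjusted p = 3.87e-05). PGD rose by 0.61 with FIDAS-5 and by 0.98 with JQ1 (adjusted p = 0.013 and 0.000684 by limma). The FIDAS-5 call of PGD ended without FIDAS-5 replicate 3 (0.52) or vehicle replicate 3 (0.60). NADPH itself was not measured. Without FIDAS-5 replicate 3 and without vehicle replicate 3, 3 and 2 genes of this list were called with FIDAS-5. Of 11 genes of the polyol, glucuronate and fructose pathways, 3 rose and none fell with FIDAS-5 (median 0.30), and 5 rose and 2 fell with JQ1 (median 0.35). CRYL1, a gulonate dehydrogenase, rose by 1.37 and 1.69 with FIDAS-5 and JQ1. SORD, which follows AKR1B1 in the polyol pathway, had differences of -0.31 and -0.01.

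Of 17 tested aldehyde and alcohol dehydrogenases, which oxidise what the reductases reduce, 2 rose and none fell with FIDAS-5 (median 0.21), and 6 rose and 3 fell with JQ1 (median 0.49). ALDH6A1, a mitochondrial semialdehyde dehydrogenase, rose by 1.17 with JQ1 (adjusted p = 0.000669), and ALDH1B1 fell by 1.17 (adjusted p = 0.000257). With FIDAS-5 the call of ALDH3A2 (0.81), a fatty aldehyde dehydrogenase, ended on leaving out each FIDAS-5 library in turn, or the vehicle libraries 1 or 3 (0.60 to 0.84), which left ALDH2. Of 31 tested genes of NRF2, its partners and targets, a list whose direction with FIDAS-5 was known beforehand, 14 rose and 1 fell with FIDAS-5 (median 0.61), and 10 rose and 10 fell with JQ1 (median 0.11). NFE2L2, which encodes NRF2, had differences of 0.50 and 0.19, neither called. With the GC trend removed NFE2L2 was called higher with FIDAS-5 (0.69, adjusted p = 0.0137 by limma), and with the replicate block as well it was also called with JQ1 (0.35, adjusted p = 0.044). GPX2, a glutathione peroxidase, was at 173 TPM with FIDAS-5, 4.67 TPM with JQ1 and 62.8 TPM with vehicle. The 1 gene of this list called lower with FIDAS-5 was NQO1 (0.91 TPM, against 1.66 TPM with vehicle, log2 difference -0.47). NQO1 passed the filter with the help of the vehicle libraries, where it was highest, and its call ended in several alternatives. GCLC (0.07) and GCLM (0.47) were not called with FIDAS-5, though GCLM was called higher with the GC trend removed (0.67).

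**Figure D4:**
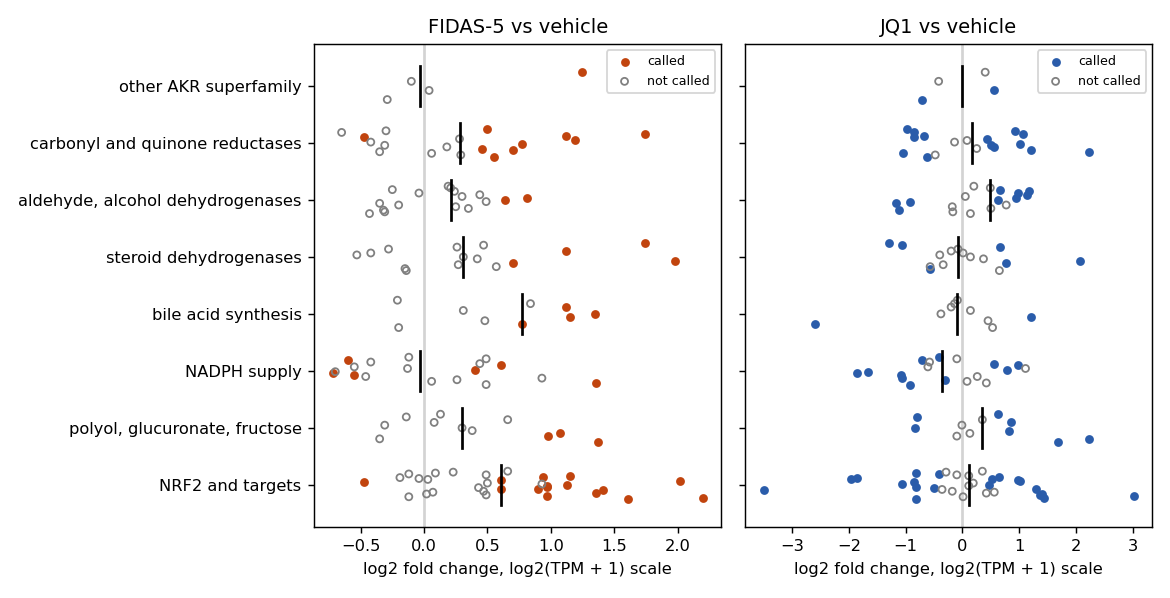
Log2 fold changes on the log2(TPM + 1) scale of tested genes in 8 lists, members left out, for FIDAS-5 against vehicle (left) and JQ1 against vehicle (right), with filled points for genes called at an adjusted p under 0.05 and a bar for the list's median. Filled points lie mostly above 0 with FIDAS-5 and on both sides of 0 with JQ1. Of all genes called, 62.4% were higher with FIDAS-5 (52% with quantile normalization) and 49.5% with JQ1.

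Between 27.6 and 34.0% of each library's TPM fell on protein-coding genes, and the depth is unknown because TPM keeps none. All 11 liver markers, albumin and alpha-fetoprotein among them, averaged at least 1 TPM in each group, and they summed to 3989 to 6065 TPM with FIDAS-5, 8863 to 13209 TPM with JQ1 and 5009 to 5985 TPM with vehicle. The summed level of 6 leukocyte markers was 253 to 312 TPM with FIDAS-5, 19.2 to 28.1 TPM with JQ1 and 115 to 141 TPM with vehicle. Of these 6, 4 averaged at least 1 TPM in each group. LYZ averaged 253, 12.4 and 113 TPM of the sum in these groups. PTPRC averaged 0.439, 0.445 and 0.673 TPM and CD3E 0.294, 0.0804 and 0.155 TPM. The 6 fibroblast and endothelial markers summed to 16.8 to 18.4 TPM with FIDAS-5, 2.78 to 3.3 TPM with JQ1 and 8.51 to 11.1 TPM with vehicle. Of these 6, 2, 2 and 1 averaged at least 1 TPM in these groups. PECAM1 averaged 16.1, 1.43 and 8.69 TPM of the sum, with COL1A1 at most 0.164 TPM. The 6 cholangiocyte markers summed to 24.4 to 39.7 TPM with FIDAS-5, 31.9 to 48.6 TPM with JQ1 and 26.4 to 32.4 TPM with vehicle. KRT7 was listed at 0, and 4, 3 and 2 of the 6 averaged at least 1 TPM in these groups. The part of these markers in the changes of the family was not tested.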

How the data were processed

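The authors deposited TPM per gene symbol for 9 libraries, made with Salmon against hg38, per the submitters' processing notes. The Salmon version and the annotation are not given in the sources used here. Values were transformed to log2(TPM + 1), and the 13573 genes that reached 1 TPM in 3 or more libraries were fitted together, 1 mean per group, with limma 3.58.1 in R 4.3.3 (no trend, 6 residual and 2.86 prior degrees of freedom). Tests were two-sided, with Benjamini-Hochberg adjustment over all genes and a threshold of 0.05. The members and lists were chosen with earlier results of these data known. From each list, the 4 tested genes with the smallest adjusted p, and others that describe it, could be named. The pipeline was tested on simulated data. Sequences came from RefSeq (GRCh38.p14) and GENCODE and were aligned with Biopython 1.88. Figures were drawn with matplotlib 3.10.9. Alternatives were another pseudocount (0.1), filters, scalings, moderation, a GC correction, a replicate block and leaving out each library. One gene of the NADPH supply list is not reported here. Same-numbered libraries did not deviate together in every pair.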

Additional observations from a re-analysis of the deposited data

How the results depend on the processing

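The number of members called with FIDAS-5 was 3, and 5 with no filter, where untested members entered, and 5 with protein-coding genes only, where AKR1A1 and AKR1D1 were also called. Leaving out each library gave 2 to 3 members with FIDAS-5, 2 to 4 with JQ1 and 5 throughout for JQ1 against FIDAS-5. The JQ1 count fell to 2 without JQ1 replicate 3, vehicle replicate 2 or vehicle replicate 3, where AKR1B1 and AKR1D1 were not called. AKR1D1 was also not called without JQ1 replicate 2. AKR1C1, AKR1C2 and AKR7A2 kept their calls and their directions against vehicle in all alternatives that were run. Over all genes, 2742, 5219 and 4726 were called for FIDAS-5 against vehicle, JQ1 against vehicle and JQ1 against FIDAS-5. With the GC trend removed the first was 4416. With the stricter filter (5 TPM) the third was 2991. With the replicate block and the GC trend removed together the first was 4751 and the third 7143. Leaving out each library gave 1639 to 3290, 3924 to 5337 and 3394 to 5435, the fewest for FIDAS-5 without vehicle replicate 3 (1639) and FIDAS-5 replicate 3 (1640). Quantile normalization gave 1904 higher and 1756 lower with FIDAS-5, beside 1711 and 1031. The mean AKR1C sum was 319 to 332 TPM with FIDAS-5, 41.3 to 43.7 TPM with JQ1 and 32.3 to 37.3 TPM with vehicle when each library of the group was left out. With protein-coding genes only or the GC trend removed, the FIDAS-5 calls were 8 or 9 of the steroid enzymes (beside 4), 11 or 10 of NADPH supply (beside 6) and 6 or 6 of the polyol list (beside 3). The GC correction gave 5 aldehyde dehydrogenase calls with FIDAS-5 (beside 2) and 5 bile acid enzyme calls with JQ1 (beside 2). All these counts take both directions together. With the GC trend removed, the FIDAS-5 calls gained among steroid enzymes were higher for HSD17B3, HSD17B11, HSD17B12 and SRD5A3. They were lower for HSD17B8 (-0.66) and HSD11B2 (-0.44). HSD17B14 (0.44) was then no longer called with FIDAS-5. In the polyol list RGN and UGDH were gained higher and DCXR lower (-0.66). ALDH1L2 and ALDH6A1 were gained higher and ALDH1B1 lower (-0.53). With protein-coding genes only, HSD17B3 and HSD17B11 were called higher and HSD17B7 lower (-0.48). Whether the replicate numbers pair the libraries is not stated, and a check of departures from group means cannot settle it. Correlations of same-numbered departures were -0.08 to 0.42, and not every library was closest to its own number. The replicate block gave 2891, 5544 and 5052 genes and changed no member's call. Leaving out FIDAS-5 and JQ1 replicate 3 together, chosen after the data were seen, kept AKR1C1, AKR1C2 and AKR7A2 as called and ended the JQ1 call of AKR1B1, and AKR1D1 was then called with FIDAS-5 (0.60).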
